A study of Mus musculus with 24 samples.

Results

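The core spliceosome snRNP protein genes are 40 mouse genes for the proteins that wrap, join or accompany the spliceosomal small nuclear RNAs (snRNAs). They were taken by symbol from a list of Sm, Lsm, U1, U2, U4/U6, U5 and tri-snRNP proteins with the Prp19 ligase. All 40 were found by Ensembl ID in each of the 3 expression tables, out of 54532 IDs, and no expression value was used to choose them. All 40 passed the filter on low values in every comparison. They comprise 7 Sm ring genes, 7 U6 Lsm ring genes, 3 U1, 2 U2 core, 3 SF3a, 5 SF3b, 2 U2AF, 3 U4/U6 and 5 U5 genes, the tri-snRNP joining genes Sart1 and Snrnp27, and Prpf19.

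Their expression was measured by RNA sequencing in mice with a constitutive knockout (KO) of Cmtr2. CMTR2 methylates the ribose of the second transcribed nucleotide beside the mRNA cap. KO samples were set against wild-type (WT) littermates. There were 4 KO and 4 WT libraries each of E9.5 yolk sacs, E9.5 embryos and E8.5 embryos (embryonic days). The submitters describe KO embryos as smaller than WT at E9.5 and of like form at E8.5. The E9.5 samples came from 4 litters and the E8.5 samples from 2, and the labels do not name the strain, the litter of each library or any pooling.

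In the spliceosome, 7 Sm proteins form a ring on the U1, U2, U4 and U5 snRNAs, and Lsm2 to Lsm8 form a like ring on the tail of U6. U1 binds the 5′ splice site, U2 with SF3a and SF3b binds the branch point, U2AF reads the 3′ end of the intron, and the U4/U6.U5 tri-snRNP brings in U6 and the catalytic scaffold. These proteins are made in nearly all cells, since most mRNAs are spliced.

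Libraries held 15555422 to 23373128 fragments, and replicates of a group correlated across genes at Pearson 0.914 to 0.978. The least counted member, Lsm5, had 247 fragments in its lowest yolk sac library, so counting error was small for all 40 genes. The targeted gene followed the titles. Cmtr2 averaged 0.198 ± 0.0967 scaled FPKM in KO and 3.59 ± 0.343 in WT yolk sacs, 0.54 ± 0.126 in KO and 3.51 ± 0.595 in WT embryos at E9.5, and 0.709 ± 0.161 in KO and 6.2 ± 0.398 in WT embryos at E8.5 (SD, n = 4 each). Each difference had an exact two-sided permutation p of 0.0286, the smallest that 4 against 4 allows. The genotype tag of 24 of 24 libraries was opposite to its title, and the titles were used. E9.5 embryo libraries differed in tissue content: summed scaled FPKM of 10 heart muscle genes was 140 to 823 in KO embryos, and 16.1 and 19.8 in WT replicates 1 and 3 against 553 and 567 in WT replicates 2 and 4. In bulk samples, fewer cells of a type and less RNA per cell cannot be told apart.

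In E9.5 tissue, Snrpd1, an Sm ring gene, stood at the top of the members in all 4 groups. On a common scale of the 16 E9.5 libraries it averaged 170 FPKM in KO and 156 FPKM in WT yolk sacs, and 300 FPKM in KO and 228 FPKM in WT embryos. U2af1, which reads the AG at the end of the intron, came next with 121 FPKM in KO and 108 FPKM in WT yolk sacs, and 254 FPKM in KO and 193 FPKM in WT embryos. FPKM divides by gene length, and the tables used for Snrpd1 and U2af1 a length other than that of the annotation, which bears on this order. At the low end were Lsm8, the subunit that marks the nuclear U6 ring, and the U4/U6 genes Prpf3 and Prpf4. Lsm8 averaged 11.0 ± 0.99 FPKM in KO and 9.05 ± 1.75 FPKM in WT yolk sacs, and Prpf3 averaged 12.1 ± 1.14 FPKM in KO and 10.4 ± 1.07 FPKM in WT yolk sacs, so neighbours at this end did not differ beyond their spread. The median level of the 40 members was 27.0 FPKM in KO and 26.9 FPKM in WT yolk sacs, and 52.1 FPKM in KO and 45.4 FPKM in WT embryos. Both tables were normalized separately by the authors, so tissue and table cannot be told apart in any level set across them.

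In E9.5 embryos, 4 of the 40 genes rose in KO and 0 fell (limma, adjusted p under 0.05 over all genes tested), and each encodes a small subunit of a different assembly: Snrpd2, Sf3b5, Lsm4 and Snrpc. Over all 12027 genes tested, 7.35% rose and 6.26% fell, so a count of 4 of 40 was near the background. The median log2 fold change, KO minus WT, was 0.27 over the members and 0.01 over all genes, and 34 of 40 members were above 0 against 50.7% of all genes. At an unadjusted p under 0.05 were 12 members with a higher level in KO and Sf3b1 with a lower one, 13 of 40, where 35.6% of all genes were at such a p. KO and WT libraries did not overlap for 10 members, all higher in KO, where 11.2% of all genes were higher and 10.9% lower without overlap.

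Snrpd2 encodes SmD2, a subunit of the Sm ring that U1, U2, U4 and U5 share. It had 83.9, 114, 82.7 and 114 scaled FPKM in KO embryos, against 39.2, 59.5, 59.5 and 77.0 in WT embryos. Every KO library was above every WT library, and WT replicate 1 was the lowest of the 8. The log2 fold change was 0.76 (SE 0.21, limma adjusted p = 0.0426), the largest of the 40. Sf3b5, a small subunit of the SF3b particle at the branch point, had 35.6, 56.3, 44.2 and 50.9 in KO embryos, against 31.9, 26.4, 29.3 and 29.6 in WT embryos. The groups did not overlap, and the KO libraries were more widely spread than the WT libraries. Its log2 fold change was 0.65 (SE 0.16, adjusted p = 0.0311).

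Lsm4, a subunit of the U6 Lsm ring and also of the cytoplasmic ring that acts in mRNA decay, had 163, 243, 220 and 208 scaled FPKM in KO embryos, against 157, 112, 135 and 138 in WT embryos. The groups did not overlap, with KO replicate 1 close to WT replicate 1. The log2 fold change was 0.62 (SE 0.16, adjusted p = 0.0389). Snrpc encodes U1-C, which steadies the pairing of U1 with the 5′ splice site. It had 27.4, 34.0, 31.9 and 34.8 in KO embryos, against 21.3, 20.1, 22.7 and 21.4 in WT embryos. The 4 WT libraries lay close together and below all KO libraries, and the log2 fold change was 0.57 (SE 0.12, adjusted p = 0.0252).

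**Figure D1:**
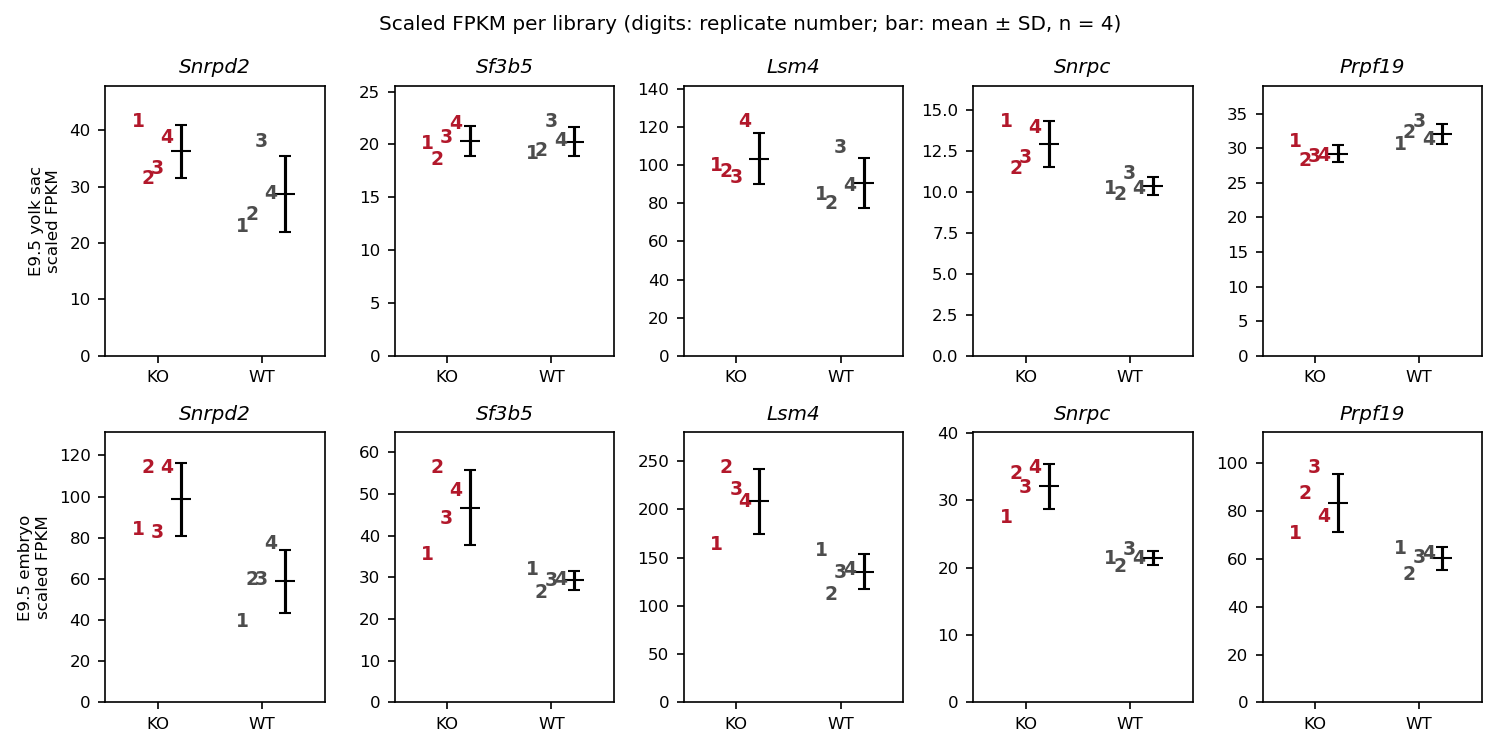
Scaled FPKM (y axes, starting at 0) of 5 members in each E9.5 yolk sac (top) and E9.5 embryo (bottom) library, KO left of WT; digits are replicate numbers and bars the mean ± SD (n = 4). In embryos every KO library of Snrpd2, Sf3b5, Lsm4 and Snrpc is above every WT library, as it is for Prpf19, which was not called there (adjusted p = 0.0524).

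Just outside the threshold in E9.5 embryos stood Sart1 (log2 fold change 0.39, adjusted p = 0.0513), which joins the tri-snRNP, the ubiquitin ligase Prpf19 (0.46, adjusted p = 0.0524), Lsm7 (0.63, adjusted p = 0.0609) and the U5 protein gene Snrnp40 (0.37, adjusted p = 0.0715). Of these, Lsm7 had overlapping groups because WT replicate 1, at 79.4 scaled FPKM, was above KO replicate 1, at 67.9. By assembly, median log2 fold changes in E9.5 embryos were 0.33 for the Sm ring, 0.20 for the Lsm ring, 0.33 for U1, 0.35 for U2AF, 0.21 for SF3b, 0.10 for SF3a, 0.24 for U4/U6, 0.10 for U5 and -0.05 for the U2 core, where Snrpa1 had 0.16 and Snrpb2 -0.26. All 7 Sm genes had a log2 fold change above 0, between 0.14 (Snrpg) and 0.76 (Snrpd2), and Snrpd2 was the only one of the 7 called. The large U5 proteins were near 0: Prpf8, the scaffold of the catalytic centre, had 0.10 (SE 0.19) and Snrnp200, the helicase that unwinds U4/U6, had -0.09 (SE 0.22). Sf3b1, which contacts the branch point, was at 25.2 ± 2.45 scaled FPKM in KO and 32.6 ± 5.54 in WT embryos (-0.35, adjusted p = 0.127).

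The 4 calls in E9.5 embryos rested on few libraries. No member was called without KO replicate 2, 3 or 4 or without WT replicate 2 or 3, 1 member (Snrpd2) without WT replicate 4, and 6 without KO replicate 1. Without WT replicate 1, 6 rose and 1 fell (Sf3b1). The 4 log2 fold changes stayed between 0.52 and 0.90 in these fits, and over all genes the calls fell as low as 76 risen and 10 fallen (without WT replicate 2). Without WT replicates 1 and 3 and KO replicate 2, which earlier results of these data set apart from the rest, the member median was 0.28 and no member was called. Snrpd2 then had 0.43 (adjusted p = 0.179), Sf3b5 0.60 (0.0771), Lsm4 0.64 (0.0802) and Snrpc 0.57 (0.071). Summed scaled FPKM of 10 yolk sac endoderm markers was 56.8 to 610 in KO and 3.23 to 366 in WT embryos, and that of 10 primitive red cell markers 1220 to 12700 in KO and 5830 to 10600 in WT embryos. Of the endoderm and heart muscle markers, 0 of 9 and 0 of 10 tested were called in KO against WT. In the other marker lists, 2 of 10 red cell and 3 of 10 neural tube markers fell in KO. Of the tailbud markers 1 of 10 rose, and of the trophoblast markers 1 of 4 tested. Over all genes, 7.35% rose and 6.26% fell. The part of these markers' tissues in the members' levels was not tested.

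Scaling also moved these values. Rescaling to TPM put the median of all genes at -0.34 and that of the members at -0.09, so the members stood 0.25 above the median of all genes, close to the 0.26 of the scaled values. On that scale 11 of 40 members were above 0, against 25.1% of all genes. Snrpd2 had 0.41 and Snrpc 0.22. Sf3b1 and Sf3a3 were called lower in KO, where 132 of 12027 genes rose and 3113 fell. Quantile normalization, which forces every library to the same distribution, put the member median at 0.02 with 24 of 40 above 0, against 49.4% of all genes. Snrpc was then the only member called, where 558 of 12027 genes rose and 656 fell. The genotype effect fell with gene length over all genes: genes under 2500 bases had a median of 0.25 and longer genes -0.05. The 11 members under 2500 bases had a median of 0.33 and the 29 longer members 0.24. With the length trend removed from each library, the member median was 0.18 and the risen members were Snrpc, Prpf19, Sart1, Snrnp70 and Sf3b5. In that run 515 of 12023 genes rose and 421 fell.

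**Figure D2:**
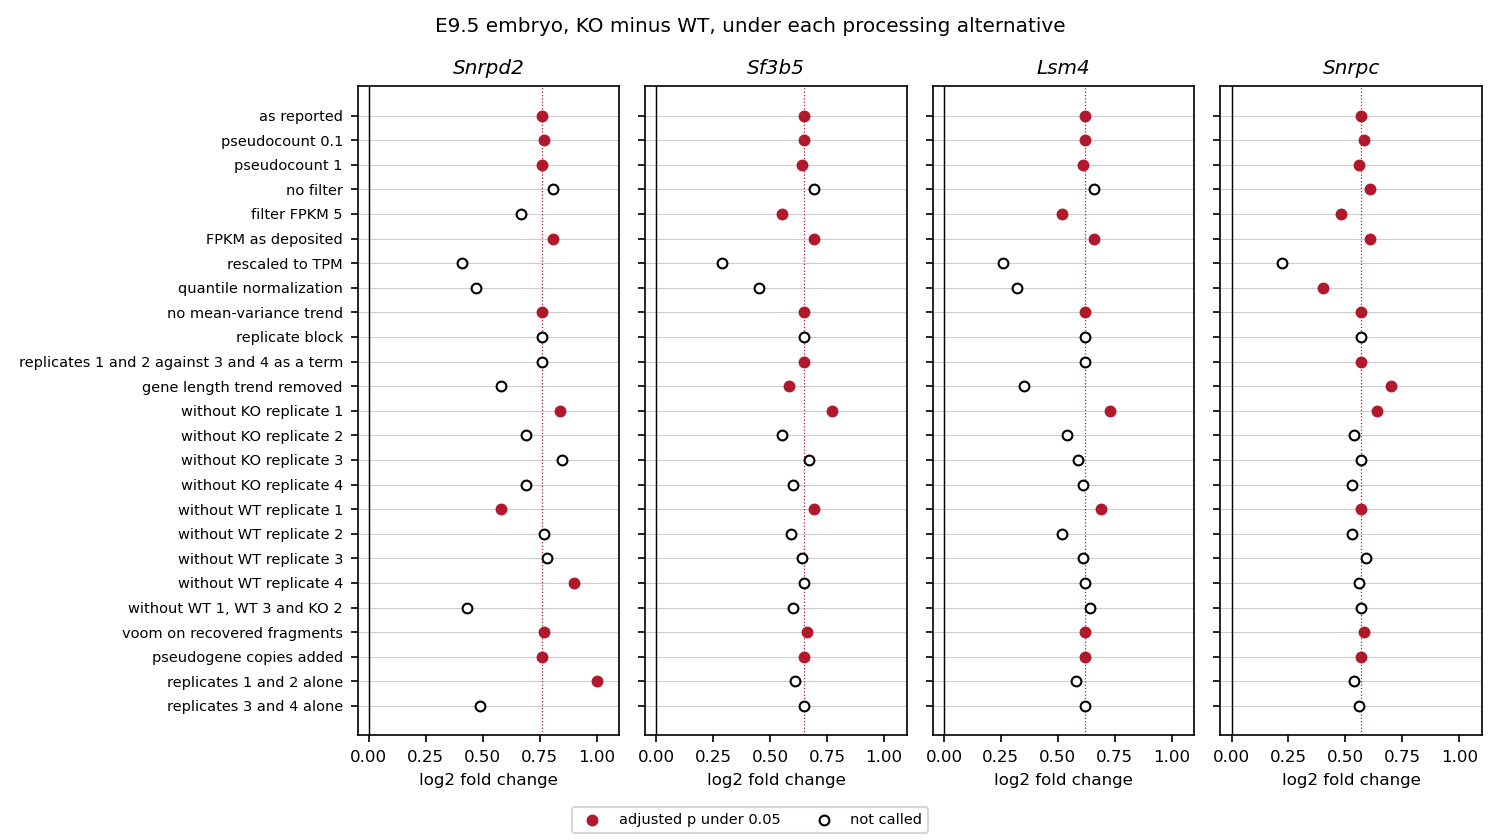
Log2 fold change, KO minus WT in E9.5 embryos (x axes), of the 4 risen members under each processing alternative (rows); filled points have an adjusted p under 0.05 and the dotted line marks the reported value. All values are above 0, between 0.22 (Snrpc, rescaled to TPM) and 1.00 (Snrpd2, replicates 1 and 2 alone), and the call is lost in many rows.

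In E9.5 yolk sacs, 0 of the 40 genes were called in KO against WT in either direction. Over 12010 genes, 1.22% rose and 1.63% fell in this set, 2.85% in all. The member median was 0.06 against 0.01 over all genes, with 29 of 40 above 0 (52.2% of all genes) and 25 of 40 above the median of all genes. At an unadjusted p under 0.05 were 8 members with a higher and 2 with a lower level in KO, where 19.2% of all genes were at such a p. Snrpc had the smallest p: 14.3, 11.4, 12.1 and 13.9 scaled FPKM in KO yolk sacs, against 10.2, 9.82, 11.1 and 10.2 in WT yolk sacs. The groups did not overlap, and the log2 fold change was 0.30 (SE 0.09, adjusted p = 0.128). Lsm6, of the U6 ring, had 12.2, 12.5, 11.8 and 14.7 in KO yolk sacs, against 9.95, 11.2, 10.7 and 9.08 in WT yolk sacs, again without overlap (0.31, SE 0.10, adjusted p = 0.138). Lsm5, of the same ring, had 24.8, 19.1, 24.9 and 24.3 in KO yolk sacs, against 18.5, 18.2, 20.2 and 18.5 in WT yolk sacs. KO replicate 2 was below WT replicate 3, so these groups overlapped (0.29, SE 0.10, adjusted p = 0.155). Near-identical copies of Lsm5 elsewhere, described below, held 39.0% to 44.9% of the fragments of gene plus copies in KO yolk sacs. In WT yolk sacs they held 31.8% to 55.2%, which limits the reading of this difference.

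The median of the 7 Lsm ring genes in yolk sacs was 0.29, with 4 of 7 at an unadjusted p under 0.05 (19.2% of all genes), and that of the Sm ring 0.18. The U4/U6 and U5 genes had medians of -0.07 and -0.05. Prpf31, a U4/U6 gene, had 14.8, 14.8, 13.2 and 14.0 scaled FPKM in KO yolk sacs, against 15.0, 17.3, 17.2 and 17.8 in WT yolk sacs. Its KO libraries were all below its WT libraries, and the difference missed the threshold (-0.24, adjusted p = 0.163). Non-overlap was found for Snrpc and Lsm6 among the higher and Prpf31 among the lower members, where 5.77% of all genes were higher and 6.74% lower without overlap. Among yolk sac libraries, the 10 endoderm markers summed to 9420 to 14500 scaled FPKM in KO and 9670 to 14400 in WT, and the red cell markers to 16000 to 35100 in KO and 16300 to 47500 in WT. The 8 trophoblast markers summed to 188 and 470 in KO replicates 1 and 2 and to 55.2 and 50.5 in KO replicates 3 and 4, against 42.8 to 57.2 in WT. From replicates 3 and 4 alone, again 0 members rose and 0 fell, with a member median of 0.01, and the part of these tissues in the members' levels was not tested.

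In E8.5 embryos, 0 of the 40 genes were called in KO against WT, where 0.528% of 13058 genes rose and 0.429% fell. The median was 0.16 for the members and 0.01 for all genes, and 29 of 40 members were above 0 against 50.8% of all genes. Rescaled to TPM, the medians were 0.03 for the members and -0.11 for all genes, 0.14 apart against 0.15 on the reported scale. After quantile normalization the member median was 0.06, with 24 of 40 above 0. At an unadjusted p under 0.05 were 4 members, all higher in KO, where 24.8% of all genes were at such a p in either direction. Sart1 averaged 36.2 ± 4.30 scaled FPKM in KO embryos (SD, n = 4), with 33.3, 31.8 and 39.7 in replicates 2, 3 and 4, against 27.6, 26.8, 24.9 and 24.0 in WT embryos. The groups did not overlap and the log2 fold change was 0.47 (SE 0.14, adjusted p = 0.0922). Lsm4 had 318, 424, 305 and 479 in KO embryos, against 287, 307, 201 and 252 in WT embryos, where KO replicate 3 lay just below WT replicate 2 (0.53, SE 0.19, adjusted p = 0.129). Snrpf, an Sm ring gene, had 119, 127, 123 and 122 in KO embryos, against 83.3, 89.6, 85.0 and 123 in WT embryos, and WT replicate 4 lay among the KO libraries (0.38, SE 0.15, adjusted p = 0.149). FPKM of the E8.5 table used other gene lengths than the E9.5 tables, so its levels are not set beside theirs.

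Also in E8.5 embryos, KO and WT libraries did not overlap for Sart1 (higher) and Snrnp27 (lower, log2 fold change -0.28, adjusted p = 0.22), where 8.09% of all genes were higher and 7.58% lower without overlap. By assembly, medians were 0.29 for the Sm ring, 0.19 for the Lsm ring, 0.30 for U1, 0.24 for U2AF, 0.11 for SF3a, 0.09 for SF3b, 0.05 for U5 and -0.03 for U4/U6. Both U2 core genes, Snrpa1 and Snrpb2, which sit on a stem of U2, were below 0, at -0.15 and -0.38. Standard errors of single members ran from 0.13 to 0.23 in E8.5 embryos, from 0.11 to 0.25 in E9.5 embryos and from 0.07 to 0.16 in yolk sacs. When a term set replicates 1 and 2 apart from 3 and 4, Sart1 was called in E8.5 embryos (adjusted p = 0.0445). With that term 938 of 13058 genes rose and 714 fell, where 69 rose and 56 fell without it. A call on 1 of 40 members is therefore not above the background of that fit.

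**Figure D3:**
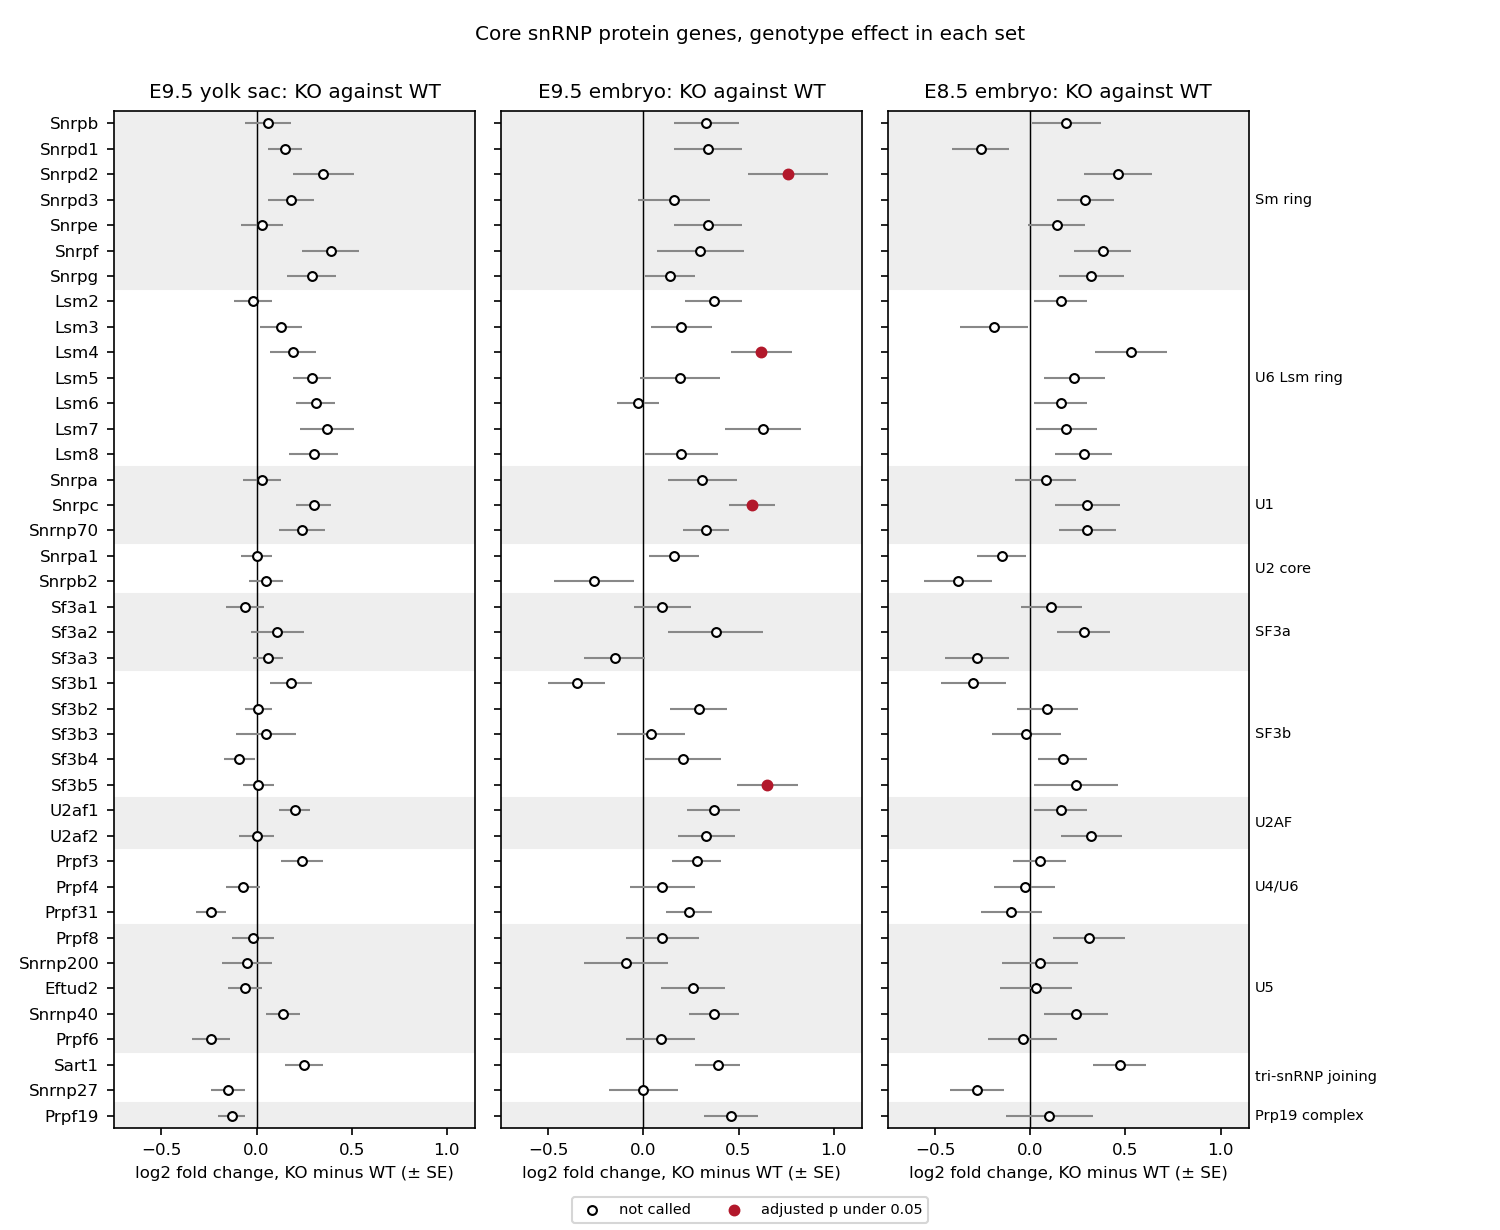
Log2 fold change, KO minus WT (x axes), with its SE for each of the 40 members (rows, grouped by assembly) in E9.5 yolk sacs, E9.5 embryos and E8.5 embryos; filled points have an adjusted p under 0.05. The 4 filled points, Snrpd2, Lsm4, Snrpc and Sf3b5, are all in E9.5 embryos, and most points lie right of 0 in each panel.

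Whether the effect of genotype differed between stages was tested directly. As E9.5 minus E8.5, 0 of 40 members differed (smallest adjusted p = 0.854), and 0.0404% of 12365 genes did. One member, the Sm gene Snrpd1, had an unadjusted p under 0.05. Its difference of 0.60 (SE 0.23) came from 0.34 at E9.5 and -0.26 at E8.5. The member median of the difference was 0.13, against -0.02 over all genes, and turned to -0.04, against -0.18, when values were rescaled to TPM. Standard errors of 0.15 to 0.32 leave room for differences of that size in either direction for single genes.

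Between tissues, as yolk sac minus embryo, the effect of genotype differed for 1 of 40 members, Prpf19, where 0.544% of 13779 genes had a positive and 1.54% a negative difference past the threshold, 2.08% in all. Prpf19 is the ubiquitin ligase of the complex that joins at activation of the spliceosome. It had 30.9, 28.2, 28.8 and 29.0 scaled FPKM in KO yolk sacs, against 30.6, 32.2, 33.9 and 31.3 in WT yolk sacs. In embryos it had 70.7, 87.3, 98.2 and 77.6 in KO, against 64.2, 53.6, 60.6 and 62.5 in WT. The groups did not overlap in embryos, and in yolk sacs only KO replicate 1 lay above a WT library. The log2 fold change was -0.13 in yolk sacs and 0.46 in embryos, neither called on its own, and their difference in the joint fit was -0.64 (SE 0.15, adjusted p = 0.0473). Prpf31 (-0.52, adjusted p = 0.0525) and Sf3b5 (-0.69, adjusted p = 0.0587) were just outside.

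The call on Prpf19 was lost in 14 of the 16 fits that left out 1 library, where the difference was -0.71 to -0.55 and the adjusted p 0.0213 to 0.103. It held without E9.5 embryo KO replicate 1 and without E9.5 embryo WT replicate 1. In those fits Prpf31 and Sf3b5 were called as well, and Sf3b1 was called with a positive difference without WT replicate 1. Without yolk sac WT replicate 1, Prpf31 was the only one called. Over all 40 members the median difference was -0.22, against -0.03 over all genes, and 8 of 40 were above 0, against 48.0% of all genes. Rescaling to TPM put the median of all genes at 0.30 and that of the members at 0.14. Then 30 of 40 were above 0, close to the 72.0% of all genes.

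The largest differences lay between tissues of the same genotype. In WT, 32 of the 40 members were lower in yolk sac than in embryo at E9.5 and 0 were higher, where 33.9% of 13779 genes were higher and 32.2% lower past the threshold, 66.1% in all. The member median was -0.66 on the log2 scale, yolk sac minus embryo, and that of all genes was -0.00. Libraries did not overlap for 26 members, all lower in yolk sac, where 31.2% of all genes were higher and 29.1% lower without overlap. The lower members included 7 of 7 Sm, 7 of 7 Lsm, 3 of 3 U1, 3 of 3 SF3a and 2 of 2 U2AF genes. All 40 members together held 0.485 ± 0.0162% of all fragments in WT yolk sacs and 0.831 ± 0.0331% in WT embryos (SD, n = 4 each). Endoderm and red cell markers mark the composition of the yolk sac libraries. Of each list 10 of 10 were higher there, and of 10 neural tube markers 10 were lower, and their part in the members' difference was not tested.

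Lsm5 and Lsm7, neighbours in function within the U6 ring, had the largest differences. Lsm5 had 19.0, 18.8, 21.4 and 19.5 FPKM on the common scale in WT yolk sacs, against 59.4, 84.4, 75.0 and 88.0 in WT embryos (-1.92, SE 0.17, adjusted p = 6.04e-08). Lsm7 had 14.4, 15.9, 22.5 and 18.3 in WT yolk sacs, against 77.9, 47.3, 48.4 and 44.8 in WT embryos (-1.57, SE 0.19, adjusted p = 1.86e-06). Sf3a2, a U2 protein, had 22.9, 15.9, 25.7 and 25.5 in WT yolk sacs, against 35.4, 43.6, 80.5 and 48.2 in WT embryos (-1.14, SE 0.22, adjusted p = 0.000263). For all 3 genes every yolk sac library was below every embryo library, with Sf3a2 most variable in embryos. Of the exon bases of Sf3a2, 16.1% overlap Plekhj1 on the other strand. As the counting is not stated to use strand, reads of the 2 genes cannot be told apart there.

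The 8 members not called between WT tissues were mostly subunits of the tri-snRNP: Prpf3 and Prpf4 of U4/U6, Prpf8, Snrnp200 and Prpf6 of U5, and Snrnp27, with the U2 proteins Snrpa1 and Sf3b1. Their differences were -0.43 (Snrnp200, SE 0.19, adjusted p = 0.0538), -0.21 (Snrnp27), -0.19 (Prpf3) and between -0.04 and 0.10 for the other 5. Other members of the same assemblies were called, with Eftud2, the GTPase of U5, at -1.04 and Snrnp40 at -1.07. These uncalled members were chosen after their values were seen.

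The same contrast was taken in the KO libraries, from the same tables and in a joint fit with the WT libraries, so it also cannot tell tissue from table. In KO, 35 of 40 members were lower in yolk sac than in embryo and 1 was higher, where 35.4% of all genes were higher and 33.8% lower, 69.2% in all. KO libraries did not overlap for 31 lower members and 1 higher member, where 29.9% of all genes were lower and 31.7% higher without overlap. The lists of lower members had 31 genes in common, 96.9% of the WT list and 88.6% of the KO list. With 35 of 40 members in the KO list and 32 in the WT list, most of this overlap follows from the list sizes. The exception was Sf3b1, named after its values were seen, with 34.9, 35.4, 35.6 and 35.3 FPKM in KO yolk sacs, against 26.9, 21.5, 24.4 and 25.5 in KO embryos (0.52, SE 0.12, adjusted p = 0.00145). In WT the same gene had 34.5, 36.2, 26.5 and 30.2 in yolk sacs, against 24.7, 36.4, 32.4 and 31.5 in embryos (0.03, SE 0.12, adjusted p = 0.848). The test of that difference between genotypes is the tissue difference given above, where Sf3b1 had 0.49 (SE 0.17, adjusted p = 0.118).

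**Figure D4:**
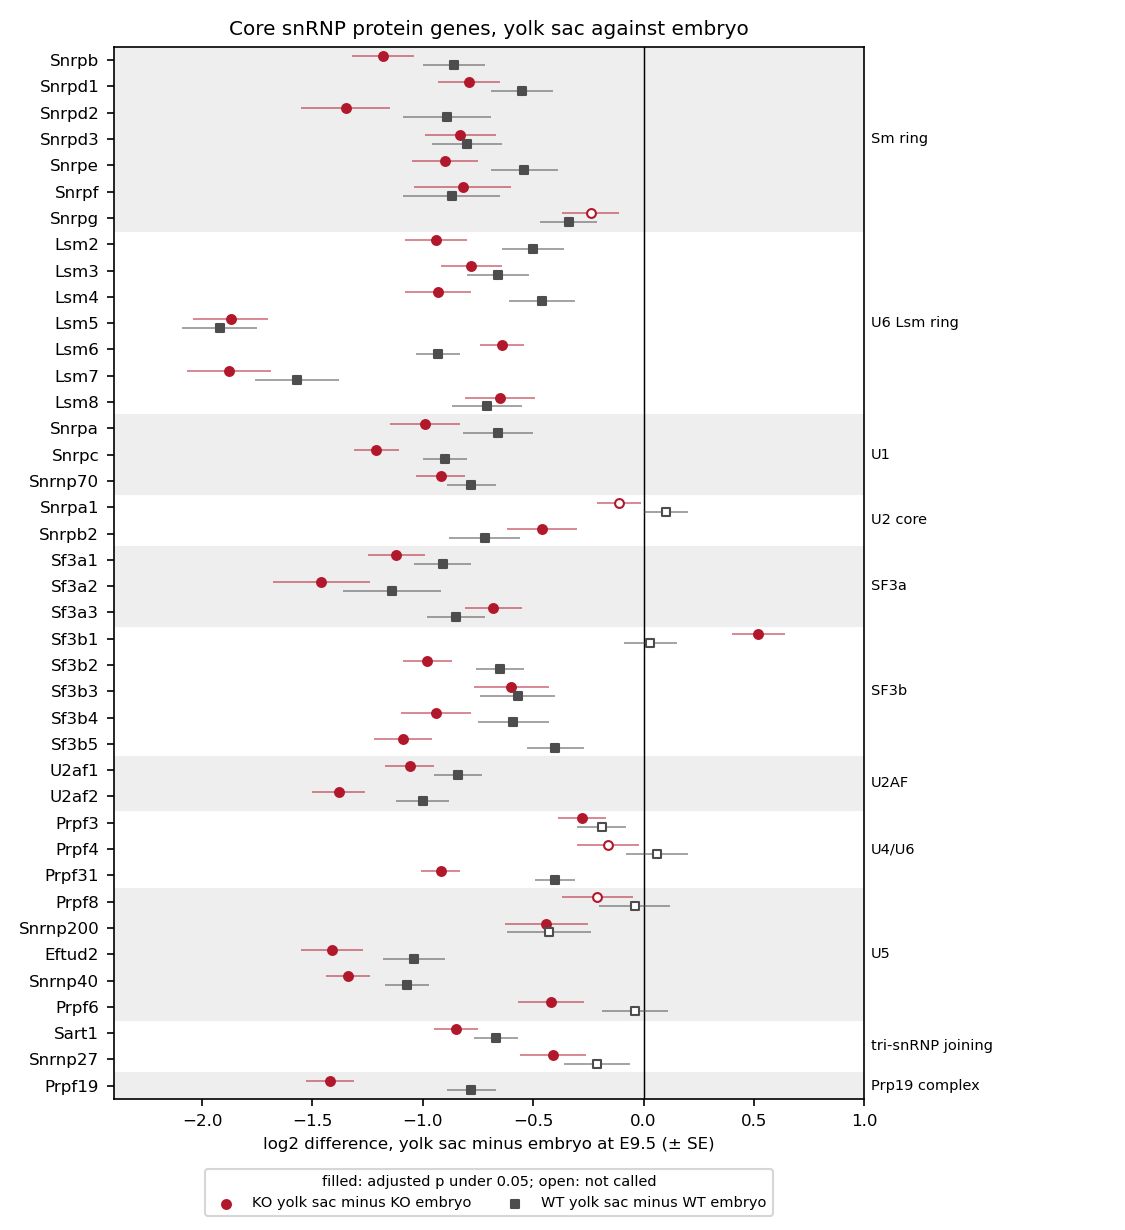
Log2 difference, yolk sac minus embryo at E9.5 (x axis), with its SE for each of the 40 members (rows, grouped by assembly), from KO libraries (circles) and WT libraries (squares); filled symbols have an adjusted p under 0.05. Most symbols lie left of 0 in both genotypes, with Lsm5 and Lsm7 farthest left and Sf3b1 in KO the only filled symbol right of 0.

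Near-identical copies affected some of these levels. Of the 40 genes, 16 have a copy elsewhere of at least 95% identity over at least 200 bases, and reads could be assigned to either. The copies of Lsm5 held 42.5% of the fragments of gene plus copies in KO and 45.3% in WT yolk sacs, against 9.03% in KO and 8.41% in WT embryos at E9.5. With the copies added to Lsm5, the WT tissue difference was -1.17 (adjusted p = 5.71e-05) in place of -1.92. For Snrpg the share moved the other way, with 4.8% in KO and 5.02% in WT yolk sacs, against 19.5% in KO and 18.8% in WT embryos. Its WT tissue difference was -0.34 alone and -0.56 with the copies. No KO against WT count of members changed when copies were added. An unchanged count does not show how single values moved. Over all alternatives, Lsm5 in KO against WT yolk sacs had 0.19 to 0.38 (limma adjusted p 0.0598 to 0.536).

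**Figure D5:**
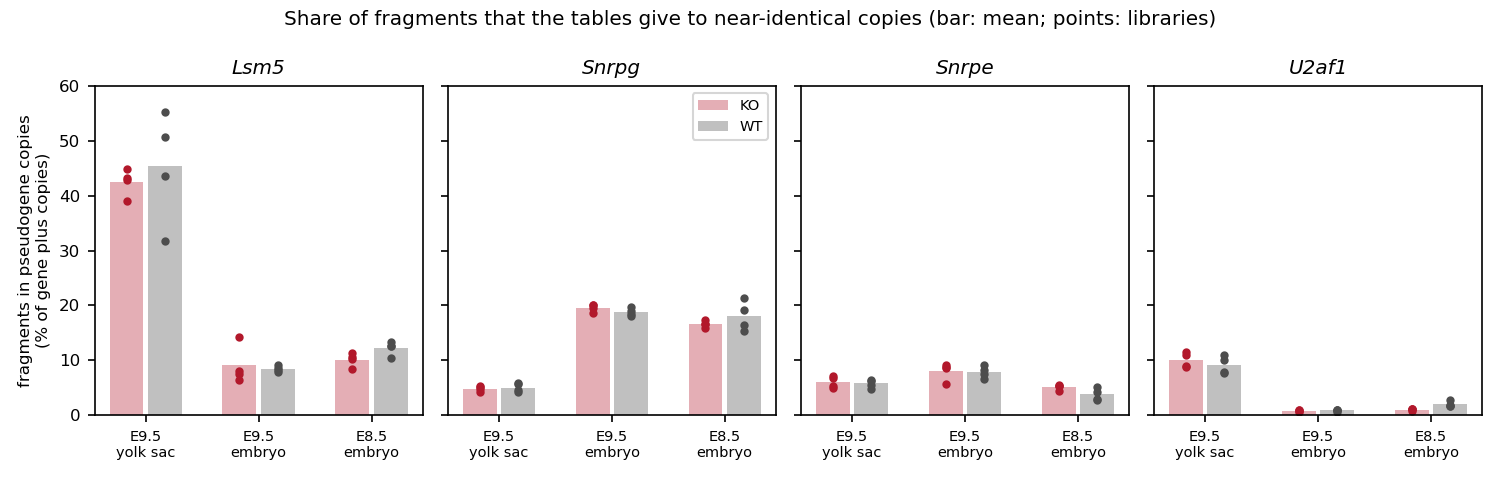
Share of the fragments of a member plus its near-identical copies that the tables give to the copies (y axes, percent), for Lsm5, Snrpg, Snrpe and U2af1 in the 3 sets, KO left of WT; bars are means and points single libraries. Lsm5 in yolk sacs stands highest, at 42.5% in KO and 45.3% in WT, and KO and WT bars lie close together in each set.

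The promoters of the members were searched for short motifs. RefSeq promoters of build GRCm38.p6 were matched for 32 of the 40 genes, and the 250 bases before the start were searched on both strands. The start used lay 1333, 1937 and 9451 bases from the annotated gene start for Snrpa1, Snrpc and Prpf6, and nearer for the other members. CCGGAAG, a core that ETS factors bind, was found in 12 of the 32 (37.5%), in 14.3% of 9720 promoters of tested genes and in 7.11% of 27025 promoters. CCAAT, the core of NF-Y, was in 34.4% of the members and 36.9% of tested genes, and CCCGCCC, which Sp and KLF factors bind, in 34.4% of the members and 45.2% of tested genes. TATAAA was in 2 of the 32 members (6.25%) and in 6.12% of tested genes. A match is a description of the letters and not a site. The promoters of Lsm5 and Lsm7, with the largest tissue differences, of Prpf19, which differed in its genotype effect, and of Snrpd2, which rose most in KO embryos, are printed 5′ to 3′ on the strand of the gene, with matches to these motifs in capitals on either strand.
Lsm5, chr6:56704700-56704949, minus strand: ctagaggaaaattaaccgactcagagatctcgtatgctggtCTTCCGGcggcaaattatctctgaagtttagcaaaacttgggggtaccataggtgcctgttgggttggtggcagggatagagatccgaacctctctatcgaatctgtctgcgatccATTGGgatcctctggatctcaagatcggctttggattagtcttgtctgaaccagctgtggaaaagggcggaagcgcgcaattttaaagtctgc
Lsm7, chr10:80855210-80855459, minus strand: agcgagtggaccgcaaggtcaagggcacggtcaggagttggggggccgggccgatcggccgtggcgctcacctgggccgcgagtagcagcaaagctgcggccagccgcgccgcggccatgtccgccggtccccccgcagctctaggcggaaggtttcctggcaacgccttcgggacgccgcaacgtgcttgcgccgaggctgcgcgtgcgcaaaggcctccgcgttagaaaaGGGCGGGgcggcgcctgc
Prpf19, chr19:10894981-10895230, plus strand: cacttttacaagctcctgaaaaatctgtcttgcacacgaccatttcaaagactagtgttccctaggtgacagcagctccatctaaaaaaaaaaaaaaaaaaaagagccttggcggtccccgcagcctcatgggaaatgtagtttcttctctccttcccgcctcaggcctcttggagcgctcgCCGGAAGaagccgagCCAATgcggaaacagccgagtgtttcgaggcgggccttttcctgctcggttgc
Snrpd2, chr7:19149588-19149837, plus strand: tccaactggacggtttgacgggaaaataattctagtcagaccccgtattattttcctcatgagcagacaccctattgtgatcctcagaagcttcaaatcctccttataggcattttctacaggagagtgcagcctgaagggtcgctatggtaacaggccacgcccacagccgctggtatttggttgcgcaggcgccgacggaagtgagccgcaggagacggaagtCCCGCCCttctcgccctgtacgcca
The printed Lsm5 and Prpf19 promoters each hold CCGGAAG and CCAAT, or their reverse complements, and those of Lsm7 and Snrpd2 each hold CCCGCCC or its reverse complement.

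Between stages, levels in WT embryos moved for few members. As E9.5 minus E8.5, after the E8.5 values were brought to the lengths of the E9.5 table, 2 of 40 rose and 3 fell, where 13.2% of 12365 genes rose and 13.1% fell, and the median was 0.00 over the members and -0.02 over all genes. Sf3a2 had 36.3, 45.6, 82.3 and 50.3 FPKM on the common scale at E9.5, against 30.3, 32.0, 35.1 and 33.2 at E8.5 (0.64, SE 0.21, adjusted p = 0.0336). Sf3a1, of the same U2 complex, had 53.0, 37.4, 49.0 and 38.1 at E9.5, against 34.0, 32.8, 33.1 and 27.4 at E8.5 (0.46, SE 0.15, adjusted p = 0.0327). Both were without overlap, while the third subunit gene, Sf3a3, had 0.00 (SE 0.17). Snrpa1 had 30.1, 26.8, 28.6 and 24.8 at E9.5, against 43.6, 41.3, 36.4 and 37.4 at E8.5, again without overlap (-0.52, SE 0.11, adjusted p = 0.00395). Snrnp27 had 25.6, 27.9, 18.9 and 27.3 at E9.5, against 30.8, 40.7, 31.8 and 33.4 at E8.5, also without overlap (-0.45, SE 0.16, adjusted p = 0.0435). Lsm3, of the U6 ring, had 25.1, 31.6, 21.7 and 25.5 at E9.5, against 45.9, 50.4, 30.3 and 32.9 at E8.5. One E9.5 library of Lsm3, replicate 2, lay above E8.5 replicate 3, so these groups overlapped (-0.59, SE 0.17, adjusted p = 0.0184).

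These stage counts moved with single libraries. Risen members numbered 0 without E8.5 WT replicate 2 or E9.5 WT replicate 3, 1 without E8.5 WT replicate 1, 3 or 4 or E9.5 WT replicate 4, and 4 without E9.5 WT replicate 2. Fallen members numbered 1 without E8.5 WT replicate 1 or 2 or E9.5 WT replicate 3. The E8.5 embryo libraries also held yolk sac endoderm transcripts: the 10 markers summed to 1730 to 4760 scaled FPKM in WT embryos at E8.5. The sum of 3.23 to 366 at E9.5 is on other gene lengths, so the 2 sums are not on a common scale. With lengths matched, 7 of 7 tested markers were lower at E9.5 (median log2 difference -4.41), where 13.1% of all genes fell. Their part in the stage differences was not tested. Rescaled to TPM, 0 rose and 0 fell, with medians of 0.14 over the members and 0.11 over all genes. Stage and table cannot be told apart.

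In KO embryos, as E9.5 minus E8.5 in the same joint fit, 4 of 40 members rose and 0 fell, where 8.88% of all genes rose and 10.2% fell. The 4 were Sf3a2 (0.74, SE 0.21, adjusted p = 0.0226), Lsm2 (0.57, SE 0.14, adjusted p = 0.0108), Sf3a1 (0.46, SE 0.15, adjusted p = 0.0434) and Snrpc (0.43, SE 0.14, adjusted p = 0.0447). Lsm2, of the U6 ring, had 35.6, 46.1, 44.6 and 39.5 FPKM on the common scale in KO embryos at E9.5, against 26.9, 26.4, 23.8 and 34.2 at E8.5. Its groups did not overlap, as was so for 3 members higher and 2 lower in KO, where 9.91% of all genes were higher and 12.0% lower without overlap. No difference between KO and WT in these stage changes was called, as given above.

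Other splicing genes gave a background of the same pathway, from lists chosen with earlier results of these data known. Their counts in E9.5 embryos stand against 7.35% of all genes risen and 6.26% fallen. Of 15 other core snRNP genes tested, 0 rose and 1 fell in KO embryos: the kinase gene Prpf4b, at 10.7 ± 1.61 scaled FPKM in KO and 18.2 ± 3.76 in WT (-0.73, adjusted p = 0.0319). Of 17 genes for snRNP assembly and snRNA caps, 2 rose and 1 fell. Prmt5, which methylates Sm proteins, was at 111 ± 23.9 in KO and 68.8 ± 16.2 in WT (0.69, adjusted p = 0.0472), and Gemin7, of the SMN complex that loads the Sm ring, at 37.3 ± 3.83 in KO and 25.1 ± 5.43 in WT (0.58, adjusted p = 0.0446). Tgs1, which trimethylates the snRNA cap, was at 9.32 ± 1.01 in KO and 14.8 ± 2.95 in WT (-0.63, adjusted p = 0.0382). Of 14 Integrator genes, which cut the 3′ end of snRNAs, 1 rose, Ints11 (0.75, adjusted p = 0.0224).

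Of 7 other LSm genes, 2 rose in E9.5 KO embryos: Lsm10, of the U7 snRNP that trims histone mRNAs, at 21.1 ± 5.52 in KO and 10.4 ± 1.20 in WT (0.96, adjusted p = 0.0193), and Naa38 (0.76, adjusted p = 0.0243). Naa38 was the only one of these LSm genes called in E8.5 embryos (0.78, adjusted p = 0.0466). Of 15 Prp19-related genes, 2 rose (Xab2 and Ppie) and 2 fell (Cwc27 and Cdc5l) at E9.5. Cwc27, a cyclophilin-like protein gene, was at 10.3 ± 1.93 scaled FPKM in KO and 26.7 ± 5.69 in WT embryos at E8.5 (-1.32, adjusted p = 0.0126), the only call among the Prp19-related genes at that stage. It was at 2.98 ± 0.847 in KO and 6.59 ± 1.86 in WT embryos at E9.5 (-1.01, adjusted p = 0.03). Of 7 genes for U6 and 7SK handling, Larp7 fell (-0.66, adjusted p = 0.0412). Of 12 helicases and late factors Cdc40 fell (-0.54, adjusted p = 0.0393), and 0 of 12 minor spliceosome genes were called. In yolk sacs, 0 genes of these lists were called in KO against WT.

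Between WT tissues, where 32.2% of all genes were lower and 33.9% higher in yolk sac, 9 of 15 other core snRNP genes, 8 of 17 assembly genes, 8 of 15 Prp19-related genes, 4 of 7 U6 and 7SK genes, 4 of 7 other LSm genes and 4 of 12 minor spliceosome genes were lower and 0 were higher. The last of these is close to the share of all genes. The helicases and late factors had 2 of 12 higher, Prpf18 (0.66, adjusted p = 0.000954) and Cdc40 (0.27, adjusted p = 0.0285), and 2 lower. Coil, which scaffolds Cajal bodies where snRNPs mature, was at 5.72 ± 0.499 FPKM in WT yolk sacs and 12.6 ± 0.874 FPKM in WT embryos (-1.07, adjusted p = 8.62e-08). The Integrator list was mixed, with 2 higher and 6 lower. The genes of the small nuclear RNA list had low or no FPKM for the most part. How far these libraries capture and count such RNAs was not tested, so the values of this list are not read as RNA abundance. The 13 symbols found include Rnu7, Rnu3a, Rnu3b1, Rnu73b and Rn7sk, whose RNAs are no part of the spliceosome. Of the 13, 6 were at 0 in all libraries, among them Rnu7, Rnu3a and Rnu3b1. Rnu1a1, a U1 gene, was listed at 0, 0, 4.46 and 0.676 scaled FPKM in KO embryos at E9.5 and at 0, 0, 0.31 and 0.348 in WT embryos. Rn7sk, the 7SK RNA that holds back transcription elongation and is no part of the spliceosome, was above 0 in all libraries. It was lower in WT yolk sacs, at 2.61 ± 0.739 FPKM on the common scale, than in WT embryos, at 88.7 ± 59.9 FPKM (-4.59, SE 0.42, adjusted p = 6.81e-08). In WT embryos it was higher at E9.5, at 91.4 ± 61.2 FPKM, than at E8.5, at 7.87 ± 3.58 FPKM (3.27, adjusted p = 0.0281). Rn7sk varied widely between libraries of a group. With each set scaled alone, KO embryos had 3.24, 282, 1.9 and 18.7 at E8.5 and 38.2, 50.2, 46.1 and 33.3 at E9.5. No gene of this list, of the 2 or 3 tested, was called in KO against WT in any of the 3 sets.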

How the data were processed

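RNA was extracted with TRIzol and made into NEBNext Ultra libraries, per the labels' protocols. The authors deposited 3 tables of FPKM (fragments scaled to gene length and library depth) for 54532 genes, with GRCm38, mm10 and DESeq2 named in the submitters' processing notes. Alignment and counting tools were not given in the sources used here. Dividing by gene length and depth gave whole fragments within 0.02, with mean transcript length in the E8.5 table and union exon length in the E9.5 tables. The deposited FPKM were scaled by the median of ratios over genes with at least 1 FPKM in at least 4 libraries, and log2(FPKM + 0.5) was tested with limma 3.58.1 (R 4.3.3), with a mean-variance trend and Benjamini-Hochberg adjustment over all genes tested. A fold change on this scale understates that of low genes. A gene was called at an adjusted p under 0.05. Each set was fitted alone, and differences between stages or tissues were fitted over 16 libraries scaled together. The labels do not say whether a yolk sac and an embryo library came from the same conceptus. The fits across tissues treat all libraries as independent. The scripts were tested on simulated data. Summaries were made with pandas 2.3.3 and numpy 2.4.6 in Python 3.11.15, and figures with matplotlib 3.10.9.

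Per-library values are given for up to 6 called members in each direction in a KO against WT comparison, or for the 3 members of smallest p where fewer were called, for up to 3 per direction in other comparisons, and for up to 2 genes per direction of each list; other names were chosen after the values were seen. The members and lists were chosen with earlier results of these data known. As the labels do not tie libraries to litters, p-values reflect only how far these samples spread, which may be technical. Same-numbered KO and WT yolk sacs deviated together (correlation 0.21 to 0.39), so their numbers may mark pairs. The yolk sac values reported above come from a fit with genotype as the only term, which does not use such pairs. With the number as a block, 0 members rose and 0 fell in yolk sacs, as without it. Alternatives were other pseudocounts, filters and scalings, no trend, the replicate block, a gene length correction, voom on the recovered fragments, near-identical copies added and libraries left out. Some results on marker genes are not reported here.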

Additional observations from a re-analysis of the deposited data

Results flagged for a closer look

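In 3 of the 20 groups of 4 libraries behind the members named in the KO against WT comparisons, 1 library stood apart from the other 3, where chance alone sets a library apart in about 1 of 20 groups. Snrpf in E8.5 embryos had 123.0 scaled FPKM in WT replicate 4, against 83.3 to 89.6 in the other WT libraries. Lsm5 in yolk sacs had 19.1 in KO replicate 2, while KO replicates 1, 3 and 4 had 24.3 to 24.9. Lsm5 also had 20.2 in WT replicate 3 of the yolk sacs, against 18.2 to 18.5 in the other WT libraries. These Lsm5 values leave out its near-identical copies, which held 31.8% to 55.2% of the fragments of gene plus copies in WT yolk sacs. The effect of genotype on Prpf19 differed between tissues, yolk sac minus embryo, by -0.64 (SE 0.15, adjusted p = 0.0473) in the joint fit.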

How the results depend on the processing

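No member named for its test changed direction in any alternative run. In yolk sacs and for the stage difference, the counts of 0 risen and 0 fallen members stood in every alternative run, and WT yolk sacs had 30 to 32 lower members with 1 WT library left out, 34 as deposited, 35 in TPM and 33 with the replicate block. In E8.5 embryos 1 member rose with a term that set replicates 1 and 2 apart from 3 and 4. There 938 of 13058 genes rose and 714 fell. In E9.5 embryos, in place of 4, risen members numbered 1 with no filter, 0 in TPM, 1 after quantile normalization, 0 with the replicate block, 2 with that term, 0 without WT replicates 1 and 3 and KO replicate 2, 1 from replicates 1 and 2 alone and 1 from replicates 3 and 4 alone, and 0 to 6 with 1 library left out. Fallen members numbered 2 in TPM, where 3113 of 12027 genes fell, and 0 to 1 with 1 library left out. For the tissue difference, 2 members were positive in TPM, where 854 of 13779 genes were, and 0 to 1 with 1 library left out. In place of 1, negative ones numbered 0 with a pseudocount of 0.1, 2 as deposited, 0 in TPM, 0 with no trend, 0 with the replicate block, 2 without those 3 libraries and 0 to 3 with 1 library left out. Between stages in WT, 0 rose and 0 fell in TPM, 1 rose and 1 fell without those 3 libraries, and 0 to 4 rose and 1 to 3 fell with 1 library left out. The cause was not tested. Fewer libraries or more terms leave fewer degrees of freedom. In E8.5 embryos and yolk sacs, however, the block and that term gave more calls over all genes.

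The block was not read as a pairing in E9.5 embryos, where same-numbered KO and WT libraries had correlations of -0.21 to 0.15. At E8.5, 3 of 4 pairs were at 0.31 to 0.38, and the fourth was at 0.07. The numbers may thus mark pairs in E8.5 embryos, as in yolk sacs. The E8.5 values reported above come from a fit with genotype as the only term, which does not use such pairs. With the block, 0 members rose and 0 fell in E8.5 embryos, as without it. Over all genes the block gave 108 risen and 38 fallen in E9.5 embryos, where 884 and 753 were called without it, 714 risen and 547 fallen in E8.5 embryos, where 69 and 56 were called without it, and 284 risen and 354 fallen in yolk sacs, where 146 and 196 were called without it. The fits from replicates 1 and 2 or 3 and 4 alone, voom, added copies and the 3 libraries left out across tissues and stages were chosen after seeing the data.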
